A study of Mus musculus with 2 samples.

Results

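The genes of MHC class I antigen presentation were examined in mouse primordial germ cells (PGCs), from which eggs and sperm later form. The list was taken by gene symbol and held 10 genes: the light chain B2m, the heavy chains H2-K1, H2-D1 and H2-T23, the peptide transporter subunits Tap1 and Tap2, the loading factors Tapbp, Calr and Pdia3, and the transactivator Nlrc5. Of these, 7 had a row among the 18877 genes of the expression table. Tap1, Tap2 and Nlrc5 were not analysed here. All values come from 1 group, PGCs of embryonic day 9.5 (E9.5) from C57BL6 embryos, isolated with an antibody to the surface antigen SSEA1 and left untreated. The group held 2 libraries, described as biological replicates in the study, and no comparison between conditions was possible. How many embryos went into each library is not given in the sources used here.

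A class I molecule consists of a polymorphic heavy chain and the invariant light chain B2m, and it displays short peptides from inside the cell to CD8 T cells. Peptides are cut by the proteasome, carried into the endoplasmic reticulum (ER) by the TAP transporter and loaded onto new class I molecules by tapasin (Tapbp), calreticulin (Calr) and ERp57 (Pdia3). Interferons raise the expression of most of this pathway, and germ cells and early embryonic cells are known for low surface class I.

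Values are TPM, a transcript abundance per base of gene length that sums to about the same total in each library. Reads were recovered from TPM and exon length, counting all annotated exons of a gene. Most low values came out as whole reads with this length, which can exceed that of the transcript present. Levels of different genes can therefore be compared only approximately. The first replicate held 15912466 reads and the second 5458695, a 2.92-fold difference in depth, and all intervals below are exact Poisson 95% intervals that cover counting error only. They treat each read as independent and take no account of duplicate reads from amplification, so they can be too narrow. Markers of PGCs were at 1 TPM or above in both replicates for 10 of 10 genes, compared with 60% of all genes. Their summed values were 5728 and 5747 TPM, of which Dppa3 alone held 5013 and 5075 TPM. The methods describe the embryos as female, whereas the Y-linked gene Ddx3y held 362 and 93 reads. Globins and other erythroid genes were abundant, with summed values of 4002 and 3780 TPM over 7 of 8 genes, and Alas2 was not analysed here. In bulk libraries like these, a low value can come from few expressing cells or from little RNA in each cell, and these cannot be told apart.

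The sequences before the gene starts are shown for the light chain, both classical heavy chains and calreticulin, since class I genes are known to be controlled by short conserved elements there. Each stretch holds the 250 bases before the RefSeq start on GRCm38.p6, written from 5′ to 3′ on the strand of the gene. They lie at chr2:122147437-122147686 for B2m (plus strand), chr17:34000348-34000597 for H2-K1 (minus strand), chr17:35262844-35263093 for H2-D1 (plus strand) and chr8:84846932-84847181 for Calr (minus strand). Capitals mark matches on either strand to 5 motifs: the interferon response element, CCAAT (the NF-Y motif), the letters TGACG (the core of a cAMP response element), the NF-kB element and the ER stress element, which contains CCAAT and overlaps it.
B2m: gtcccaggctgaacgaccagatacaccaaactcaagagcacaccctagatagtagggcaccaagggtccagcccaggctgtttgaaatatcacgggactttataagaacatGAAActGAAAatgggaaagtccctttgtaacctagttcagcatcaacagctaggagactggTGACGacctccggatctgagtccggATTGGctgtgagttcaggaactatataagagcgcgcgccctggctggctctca
H2-K1: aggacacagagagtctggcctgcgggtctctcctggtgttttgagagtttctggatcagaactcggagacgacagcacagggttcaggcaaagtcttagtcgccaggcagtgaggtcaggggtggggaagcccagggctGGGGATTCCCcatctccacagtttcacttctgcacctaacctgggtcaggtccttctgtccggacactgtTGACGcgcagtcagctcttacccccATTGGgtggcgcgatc
H2-D1: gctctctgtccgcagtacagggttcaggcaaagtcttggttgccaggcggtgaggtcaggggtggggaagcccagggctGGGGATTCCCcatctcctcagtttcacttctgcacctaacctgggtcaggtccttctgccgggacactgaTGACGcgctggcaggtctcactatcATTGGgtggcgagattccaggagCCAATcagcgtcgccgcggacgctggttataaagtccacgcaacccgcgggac
Calr: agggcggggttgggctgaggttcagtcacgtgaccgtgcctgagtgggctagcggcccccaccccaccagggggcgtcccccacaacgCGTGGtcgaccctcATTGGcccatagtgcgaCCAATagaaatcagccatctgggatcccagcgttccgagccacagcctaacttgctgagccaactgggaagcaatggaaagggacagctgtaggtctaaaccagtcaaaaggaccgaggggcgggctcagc
RefSeq lists 2 starts for H2-K1, and the stretch shown precedes the one that matches the GENCODE gene start, so positions and counts of matches in H2-K1 depend on that choice. For H2-D1, the GENCODE annotation places the gene start further upstream, at position 35262730, and the stretch shown follows the RefSeq start.

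Both classical heavy chains carried the NF-kB element upstream of TGACG, at positions -111 to -102 in H2-K1 and -171 to -162 in H2-D1, counted from the gene start. Their stretches aligned over 190 bases, of which 167 (87.9%) were identical. The stretches are offset, with a CCAAT match at -16 to -12 in H2-K1 and at -76 to -72 in H2-D1. The bases next to the H2-D1 start therefore have no counterpart in the H2-K1 stretch. Levels of H2-K1 and H2-D1 are given below, and a link between sequence and level was not tested. The NF-kB element occurred in 28 of 32851 RefSeq promoters of the same length (0.0852%), and among the 7 genes it was found only in this pair. The interferon response element, in 2.98% of all promoters, was found in B2m, at positions -139 to -130, and in H2-T23, at positions -124 to -115. Only an exact string was searched, so near matches were not counted, and nothing about interferon elements in the other genes follows from its absence. CCAAT was found in 7 of 7 genes and in 33.9% of all promoters. TGACG was found in 4 of 7 genes (B2m, H2-K1, H2-D1 and Pdia3) and in 17.8% of all promoters. The ER stress element was found in Calr and in 37 promoters of the whole set (0.113%). A match describes the letters of this window and not a bound site.

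**Figure D1:**
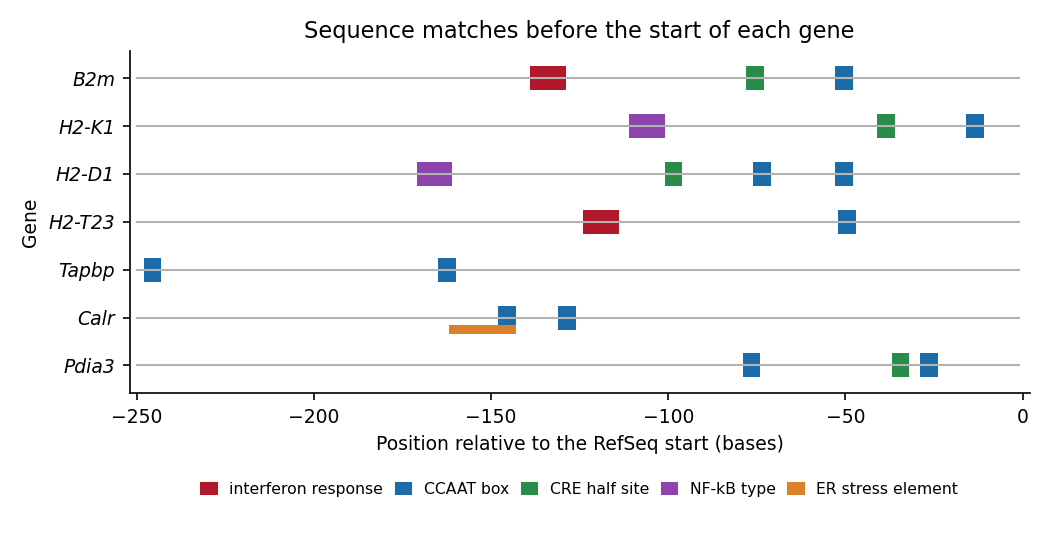
Positions of the 5 sequence matches (coloured blocks) in the 250 bases before the RefSeq start of each gene, with the start at the right end of the axis (bases). CCAAT (blue) is present in 7 of 7 genes, the NF-kB element (purple) in H2-K1 and H2-D1, and the interferon response element (red) in B2m and H2-T23. The ER stress element in Calr (orange) overlaps one of the blue blocks.

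Expression of the 7 genes covered a wide range. At 1 TPM or above in both replicates, 5 of 7 genes were detected, compared with 60% of all genes (11329 of 18877). On the log2(TPM + 1) scale the median level of the 7 genes was 2.98 ± 0.141 (SD, n = 2), from 2.88 in the first library and 3.08 in the second, while that of all genes was 1.87 ± 0.0282. The difference of 1.11 from all genes depended on how many low genes the background held: against genes with a mean of at least 1 TPM, with the 7 genes kept as they were, it was 0.0702. In order of mean level the genes were Calr, Pdia3, B2m, Tapbp, H2-K1, H2-D1 and H2-T23. The replicate ranges of Pdia3 and B2m overlapped, as did those of Tapbp and H2-K1 and those of H2-D1 and H2-T23, whereas those of Calr and Pdia3, of B2m and Tapbp and of H2-K1 and H2-D1 did not overlap.

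**Figure D2:**
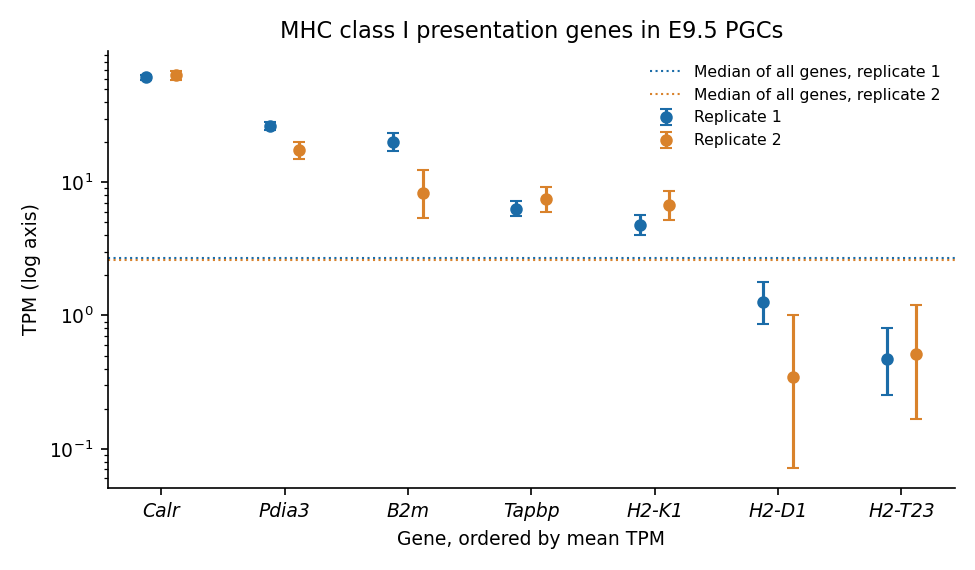
TPM (log axis) of each gene in replicate 1 (blue) and replicate 2 (orange), with bars for exact Poisson 95% intervals and dotted lines for the median of all genes. Calr, Pdia3, B2m, Tapbp and H2-K1 lie above the median of all genes in both replicates, and H2-D1 and H2-T23 lie below it.

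The light chain B2m (chromosome 2, 122147686 to 122153083) was at 20.1 TPM in replicate 1 and 8.35 TPM in replicate 2 (mean 14.2 ± 8.28, SD, n = 2). These values rested on 164 and 24 reads, and their intervals of 17.1 to 23.4 TPM and 5.35 to 12.4 TPM did not overlap. B2m stood at the 81.6th percentile of all genes in replicate 1 and at the 70.3rd in replicate 2. Its level in replicate 2 was 0.416 times that in replicate 1 (interval 0.259 to 0.641). Of the 7 genes, B2m alone differed by more than 2-fold on the log2(TPM + 1) scale (replicate 2 minus replicate 1, -1.17), as did 10.2% of all genes. Of all genes, 5.89% were past 2-fold lower in replicate 2, as B2m was, and 4.31% were past 2-fold higher. When folds were taken on TPM without a pseudocount, H2-D1 also passed and the count was 2.

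Macrophage and endothelial markers were mostly lower in replicate 2, as B2m was. So were 7 of 10 PGC markers and 5 of 7 erythroid markers. Of all 18877 genes, 9688 were lower in replicate 2. Macrophage markers were lower there for 5 of 6 genes, with summed values of 21.4 and 11.1 TPM. Csf1r was at 4.29 and 2.02 TPM, Fcer1g at 11.0 and 6.16, Tyrobp at 3.0 and 1.35, Mrc1 at 1.68 and 0.516, and C1qb at 1.16 and 0, whereas C1qc was higher in replicate 2 (0.272 and 1.08 TPM). The endothelial genes Kdr, Tek, Emcn and Cldn5 were lower in replicate 2 for 4 of 4, with summed values of 4.71 and 1.01 TPM, and Emcn had 109 reads in replicate 1 and 0 in replicate 2. Ptprc, Adgre1, C1qa, Cx3cr1, Cdh5 and Esam were not analysed here. Mesenchyme genes moved the other way, with summed values of 2.37 and 3.95 TPM over 5 of 6 genes. Among them Lum had no reads in either library, and Col1a1 was not analysed here. The part of these cells in the B2m values was not tested.

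**Figure D3:**
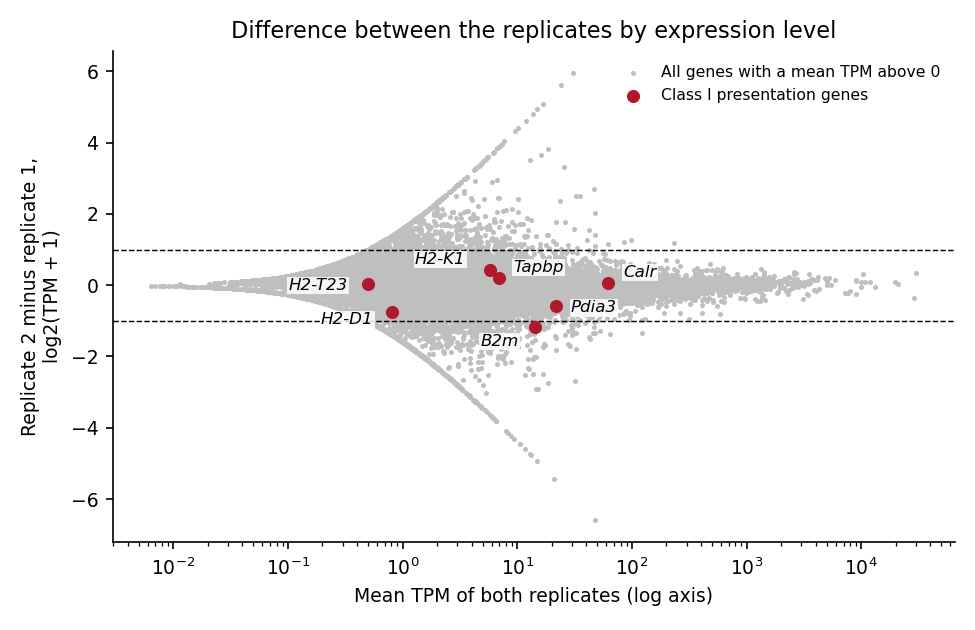
Difference between the replicates, as log2(TPM + 1) of replicate 2 minus replicate 1, against the mean TPM (log axis), for all genes with a mean above 0 (grey) and the 7 class I presentation genes (red). Dashed lines mark 2-fold. B2m lies below the lower line at -1.17, and the other 6 genes lie between the lines.

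The classical heavy chains, which present peptides to CD8 T cells, were expressed unequally. H2-K1 (chromosome 17, 33996017 to 34000347) was at 4.80 TPM in replicate 1 and 6.77 TPM in replicate 2 (mean 5.78 ± 1.39, SD, n = 2), on about 134 and 66 reads. H2-D1 (chromosome 17, 35262730 to 35267499) was at 1.26 and 0.348 TPM (mean 0.806 ± 0.648), on 31 and 3 reads. H2-K1 was higher than H2-D1 in both replicates, 3.8-fold and 19.4-fold, and the intervals of the genes did not overlap in either library (4.02 to 5.68 against 0.859 to 1.79 TPM in replicate 1, and 5.24 to 8.60 against 0.0718 to 1.02 TPM in replicate 2). Between the replicates these genes moved in opposite directions. H2-K1 was 1.41-fold higher in replicate 2 (interval 1.03 to 1.91), and H2-D1 was 0.275 times its level in replicate 1 (interval 0.0538 to 0.882).

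H2-T23, which encodes the non-classical chain Qa-1 that binds inhibitory receptors on natural killer cells, had the lowest mean of the list. In replicate 2 alone, H2-D1 was lower (0.348 TPM). H2-T23 (chromosome 17, 36029773 to 36032855) was at 0.473 and 0.518 TPM (mean 0.496 ± 0.0313, SD, n = 2), on 13 and 5 reads, near the 22.4th and 25.3rd percentile of all genes. With these few reads its interval in replicate 2 ran from 0.168 to 1.21 TPM, and a difference from H2-D1 was not detectable there. In replicate 1 the interval of H2-T23 (0.252 to 0.809 TPM) lay below that of H2-D1 (0.859 to 1.79 TPM).

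Heavy chain genes are related in sequence, and shared reads can be lost or misplaced. Of all 100-base windows in the transcripts of H2-K1, 0.957% occurred unchanged in a transcript of a gene elsewhere, compared with 3.59% for H2-D1, 3.15% for H2-T23 and 0% for B2m, Calr and Pdia3. H2-D1 shared most with H2-Q1 (3.28%). Windows with mismatches were not counted. Tapbp shared 14.7% of its windows with a gene that overlaps it.

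Other class I and class I-like heavy chains were then compared with these. Of 20 genes listed, 13 had a row, and 5 of the 13 were detected in both replicates, compared with 60% of all genes. The highest were H2-Bl at 13.6 and 9.96 TPM (mean 11.8 ± 2.55, SD, n = 2) and H2-T10 at 10.8 and 11.5 TPM (mean 11.2 ± 0.529), both annotated as polymorphic pseudogenes in GENCODE, followed by H2-T22 at 5.24 and 4.03 TPM (mean 4.63 ± 0.854) and Fcgrt, the neonatal Fc receptor, at 1.6 and 1.99 TPM. H2-M3, which presents formylated peptides, had 23 reads in replicate 1 (1.68 TPM) and 0 in replicate 2, where 3 reads would be 0.624 TPM. H2-Bl and H2-T10 each exceeded H2-K1 in both replicates, and the range of H2-T22 overlapped that of H2-K1. H2-T10, H2-T22 and H2-Bl together held 65.8% and 65.2% of the summed TPM of all 16 heavy chain genes, which was 45.0 TPM in replicate 1 and 39.2 TPM in replicate 2. H2-T10 and H2-T22 shared 7.06% and 6.92% of their windows with each other, and 22.5% and 24% with genes that overlap them, so their single values are uncertain.

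**Figure D4:**
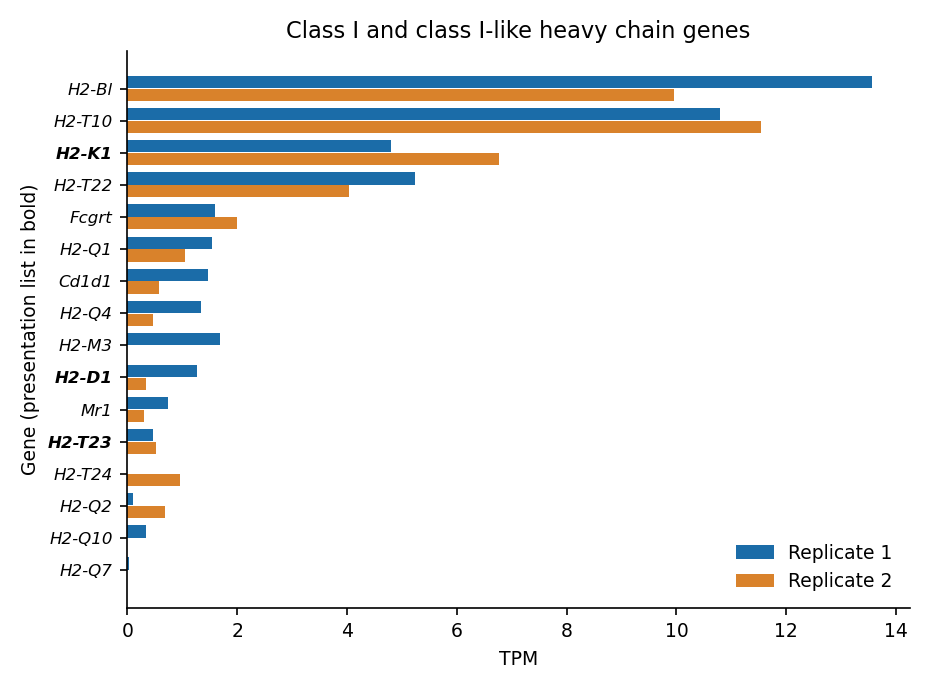
TPM of 16 class I and class I-like heavy chain genes in replicate 1 (blue bars) and replicate 2 (orange bars), ordered by mean, with H2-K1, H2-D1 and H2-T23 in bold. H2-Bl and H2-T10 reach about 10 TPM or more in both replicates, and H2-D1 and H2-T23 stay below 1.3 TPM.

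The light chain was then set against the heavy chains within each library. B2m was 3.31 times the sum of H2-K1 and H2-D1 in replicate 1 and 1.17 times in replicate 2 (mean 2.24 ± 1.51, SD, n = 2). Against all 16 heavy chains it was 0.446 and 0.213, so that heavy chain transcripts exceeded B2m in both libraries. Without H2-T10 and H2-Bl the ratio was 0.973 and 0.472. Heavy chains in the MHC interval, from Tapbp to H2-M3 (chromosome 17, 33915899 to 37274484), had a median of 1.34 and 0.686 TPM over 13 genes. The 87 other protein-coding genes of the interval had a median of 2.67 and 2.77 TPM. In both replicates 58 of them (66.7%) were detected, compared with 60% of all genes.

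Of the loading factors of the ER, Calr and Pdia3 had the highest means of the list, and Tapbp ranked below B2m. Calr (chromosome 8, 84841850 to 84846934), a lectin chaperone of glycoproteins, was at 61.1 TPM in replicate 1 and 63.6 TPM in replicate 2 (mean 62.4 ± 1.71, SD, n = 2), on 1674 and 612 reads. Its replicate ratio of 1.04 had an interval of 0.946 to 1.14. Pdia3 (chromosome 2, 121413775 to 121438687), a thiol oxidoreductase that works with calreticulin, was at 26.5 and 17.3 TPM (mean 21.9 ± 6.51), on 792 and 182 reads. It was lower in replicate 2, with a ratio of 0.653 (interval 0.553 to 0.769). Tapbp (chromosome 17, 33915899 to 33929292), which bridges class I to TAP, was at 6.35 and 7.44 TPM (mean 6.90 ± 0.771), on about 219 and 90 reads, with a ratio of 1.17 (interval 0.907 to 1.5). Calr thus exceeded Tapbp 9.63-fold and 8.54-fold. Calr and Pdia3 serve the folding of glycoproteins in general, and Tapbp is dedicated to class I.

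Genes of assembly and peptide trimming all had a row, and 9 of 12 were detected in both replicates, compared with 60% of all genes. Canx, the membrane-bound relative of calreticulin, was at 126 ± 22.7 TPM (SD, n = 2), Hspa5 (BiP) at 70.7 ± 7.63, and the translocon genes Sec61b and Sec61a1 at 416 ± 15.9 and 5.01 ± 0.144 TPM. The glucosidase subunits Ganab and Prkcsh were at 9.31 ± 1.78 and 4.75 ± 0.209, and the folding sensor Uggt1 at 2.15 ± 0.476 TPM. The factors more specific to class I peptides were near zero. Erap1, the aminopeptidase that trims peptides in the ER, had 34 reads in replicate 1 (0.491 TPM) and 0 in replicate 2, where 3 reads would be 0.123 TPM. Tapbpl, a peptide editor related to tapasin, had 4 reads (0.179 TPM) and 0, where 3 reads would be 0.382 TPM. The cytosolic peptidases Tpp2, Npepps and Thop1 were at 15.6 ± 2.34, 6.78 ± 0.609 and 0.938 ± 0.179 TPM.

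In the only catalytic pair of the proteasome with both genes analysed, the interferon-inducible subunit was the lower partner. Psmb10 was at 10.9 and 11.8 TPM, and Psmb7, the constitutive subunit it replaces, was at 99.7 and 102 TPM, 9.13-fold and 8.68-fold higher. The other constitutive catalytic subunits Psmb5 and Psmb6 were at 306 ± 29.5 and 2497 ± 109 TPM (SD, n = 2). Their inducible counterparts Psmb8 and Psmb9 were not analysed here. The activator subunits Psme1 and Psme2 (PA28) were at 150 ± 1.31 and 727 ± 4.91 TPM.

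Factors that bind class I promoters were detected in both replicates for 7 of 8 genes, compared with 60% of all genes. NF-Y, which binds CCAAT, was represented by Nfyb at 43.4 ± 0.0106, Nfyc at 5.44 ± 0.649 and Nfya at 1.27 ± 0.229 TPM (SD, n = 2). Of the RFX complex, Rfxank was at 4.76 ± 0.951 TPM, Rfx5 at 0.0957 and 0.544 TPM (5 and 10 reads), and Rfxap at 2.35 TPM in replicate 1 and 10.5 TPM in replicate 2 (50 and 79 reads). On the log2(TPM + 1) scale Rfxap alone of this list was past 2-fold between the replicates. On TPM without a pseudocount Rfx5 was also past it, with a ratio of 5.69 (interval 1.77 to 21.2). Atf1 and Creb1, which bind cAMP response elements, were at 34.3 ± 7.66 and 3.20 ± 0.464 TPM.

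Of the interferon signalling genes, 7 of 10 with a row were detected in both replicates, compared with 60% of all genes, and their median of 1.70 ± 0.225 on the log2(TPM + 1) scale (SD, n = 2) lay near the 1.87 of all genes. Of the interferon receptors, Ifngr1 was at 4.58 and 2.0 TPM, Ifngr2 at 0.730 and 0.181, Ifnar1 at 2.56 and 2.09, and Ifnar2 at 1.11 and 0.270 TPM. The kinases Jak1, Jak2 and Tyk2 were at 5.56 ± 0.601, 2.28 ± 0.619 and 1.80 ± 0.0262 TPM (SD, n = 2), and the factors Irf1, Irf9 and Stat2 at 7.27 ± 0.252, 3.98 ± 0.366 and 0.913 ± 0.291 TPM. Of the 10 genes, 9 were lower in replicate 2, as were 9688 of all 18877 genes, and Irf1 was not.

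Of 16 interferon-induced genes, 6 had a row, and 3 of the 6 were detected in both replicates, compared with 60% of all genes. Bst2 (tetherin) was at 17.9 and 19.5 TPM, well above the rest of its list. Irgm1 was at 1.05 and 1.96 TPM and Irf7 at 1.37 and 1.27 TPM. Rtp4 was listed at 0 in replicate 1 and had 7 reads in replicate 2 (0.983 TPM), and Igtp was listed at 0 in both, where 3 reads would be 0.156 and 0.444 TPM.

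MHC class II genes mark professional antigen-presenting cells. In both replicates 0 of 5 with a row were detected, compared with 60% of all genes. Only H2-DMb2 reached 1 TPM, in replicate 2. H2-Ab1 and H2-DMb1 were listed at 0 in both. H2-Eb1 had about 13 reads in replicate 1 and 0 in replicate 2, H2-DMa about 2 and 0, and H2-DMb2 0 and about 13 (2.27 TPM). Cd74 and Ciita were not analysed here.

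Ligands of NKG2D, an activating receptor of natural killer cells, had 3 genes with a row. Raet1d was at 10.001 TPM in replicate 1 and 21.6 TPM in replicate 2, and Raet1e at 3.95 and 5.82 TPM. The loci of this pair overlap in the annotation, so each value is uncertain. Ulbp1 was at 0.657 and 0.356 TPM.

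**Figure D5:**
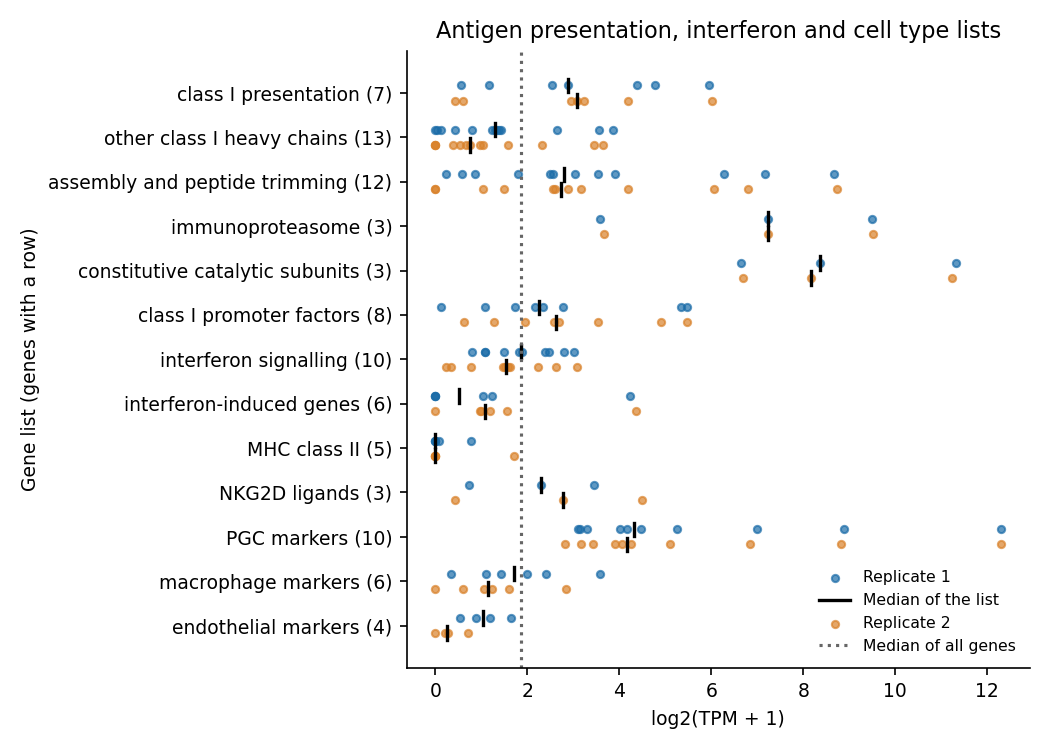
Values of each gene on the log2(TPM + 1) scale in replicate 1 (blue) and replicate 2 (orange) for 13 lists, with the number of genes with a row in parentheses, black bars for the list medians and a dotted line for the median of all genes. The class I presentation list has medians of 2.88 and 3.08, and the MHC class II list has a median of 0 in both replicates.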

How the data were processed

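RNA-seq of both E9.5 PGC replicates was analysed from 1 table. According to the methods and labels, the authors aligned reads to mm10 with Hisat2, counted them per gene with featureCounts and deposited TPM values per gene. The labels also list Bowtie2 and RSEM without a role. The annotation, strand setting and treatment of multi-mapped reads are not given in the sources used here, and the methods (Smart-seq2) and labels (NEBNext Ultra) name different library chemistries.

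Symbols were matched to GENCODE M21 on GRCm38 (18748 of 18877). Reads were recovered as TPM times exonic bases divided by the value of 1 read. Among values under 50 reads, 96.7% and 95.8% came within 0.02 of a whole number (4% by chance), with a tolerance that grew in proportion above 50 reads. For Calr in replicate 1 any value would pass, so this check says little about genes with many reads. H2-K1 and Tapbp did not come out whole, so their reads are approximate. Recovery was tested on data simulated with the same exon lengths, which cannot show whether the authors used these lengths. A zero allows up to 3 reads. Levels were placed on the log2(TPM + 1) scale, where folds of low genes come out too small. With 1 group no test was run. Replicate differences compare 2 libraries.

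Genes and lists were chosen with earlier results of these data known. Every gene with a row was named for the 10 genes and for pathway lists of up to 12 genes. For longer lists the 4 highest genes were named with those at 0 in both replicates, and H2-M3 was added after its values were seen. PGC, erythroid and mesenchyme markers are given as sums, with Dppa3 and Lum also named. Promoters came from RefSeq (7 of 7 matched). The ER stress element was added after the data were seen. Python 3.11.15, numpy 2.4.6, pandas 2.3.3, scipy 1.17.1, Biopython 1.88 and matplotlib 3.10.9 were used.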

Additional observations from a re-analysis of the deposited data

How the results depend on the processing

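Alternatives gave 28 values for 6 results of the class I list, and 18 of them stayed within a set limit. This limit was the SD of the replicates, or 1.5 times for a count. For the median replicate difference it was the SD over the 7 genes (0.583). With 2 libraries, the value of either library always lies within the replicate SD of their mean, and rescaling cannot change a ratio within a library. Part of the 18 was therefore fixed in advance. The median level of 2.98 was 2.80 with a pseudocount of 0.1, 3.17 after rescaling without genes of fewer than 200 exonic bases, which raised all TPM by 1.16 and 1.17 times, and 4.15 without H2-K1, H2-D1 and H2-T23. Its distance of 1.11 from all genes was 1.34 with a pseudocount of 0.1, 0.73 against protein-coding genes and 0.0702 against genes with a mean of at least 1 TPM. The count of 1 gene past 2-fold between the replicates was 3 at 1.5-fold and 2 without a pseudocount, a setting chosen after seeing the data. The ratio of B2m to classical heavy chains of 2.24 was 0.329 against all class I heavy chains and 0.723 without H2-T10 and H2-Bl, also chosen after seeing the data. Leaving out each replicate gave 2.88 to 3.08 for the median level, 0.99 to 1.23 for its distance from all genes, 5 to 6 genes detected, and 1.17 (without replicate 1) to 3.31 (without replicate 2) for the ratio. B2m was at 8.35 TPM without replicate 1 and 20.1 TPM without replicate 2. Differences between the replicates could not be computed with a replicate left out. No paired analysis was possible because there is only 1 group. Depth limits H2-D1 and H2-T23 most, with 3 and 5 reads in replicate 2.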
